A study of Homo sapiens with 24 samples.

Results

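Acute-phase and complement genes encode secreted proteins whose blood levels change during inflammation and tissue injury. Of the 26475 genes in the deposited tables, 9 genes of this kind were followed by symbol through all 24 RNA-seq libraries of a clear cell renal cell carcinoma (ccRCC) study: SAA1, SAA2, SAA4, C3, CFB, CP, LCN2, A2M and HP. The members were chosen by gene symbol with earlier results of the same libraries in view, and the choice was selected on the expected counts of SAA1, which differed between shPAX8-1 and shPAX8-2, and of A2M, which differed between PAX8-depleted and control libraries of OS-LM1. For this reason all members' values in those contrasts are given as a description, with fold changes and standard errors (SE) and no test, and SAA1 is not tested in any comparison that uses shPAX8 libraries. Of the 9 members, 7 passed the filter on low counts over the 24 libraries, and SAA4 and HP did not.

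The human ccRCC lines 786-M1A and OS-LM1 were profiled. They were derived from 786-O and OS-RC2 by selection for metastasis, carry mutant VHL and a luciferase transgene, and were grown in RPMI with 10% FBS. Each line carried sgNTC18 (a non-targeting CRISPR guide), shPAX8-1 or shPAX8-2 (RNA interference constructs against PAX8, a renal lineage transcription factor), with 4 replicates in each of the 6 groups. PAX8 depletion and the difference between an RNAi and a CRISPR construct, or between experiments, cannot be told apart in any comparison with sgNTC18. The doxycycline treatment and the time after induction are not given for single libraries. Replicates are not stated to be separate cultures, and p-values then measure only the spread between these samples, which may be technical.

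In the liver, acute-phase genes respond mainly to interleukin-6 through STAT3 and C/EBP factors and to interleukin-1 through NF-kB. Many are also made outside the liver, and injured renal tubular epithelium is a known source of LCN2 and C3. The serum amyloid A proteins travel on high-density lipoprotein. C3 is the protein on which all complement pathways converge, and CFB supplies the protease of the alternative pathway. CP carries copper and oxidizes iron, HP binds free haemoglobin, LCN2 withholds iron from bacteria by binding their siderophores, and A2M traps proteases.

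The constructs are shown first because the comparisons rest on them. The guide strands of both shPAX8 constructs are printed with the seed (bases 2 to 8) in capitals, the part that pairs first with a target.

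shPAX8-1: tGTGAGTCaatgcttagtcggc
shPAX8-2: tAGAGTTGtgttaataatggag

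On GRCh38 the shPAX8-1 guide matched coding sequence in exon 7 of PAX8 (chr2:113241690-113241711, gene on the minus strand) and was found in 10 annotated PAX8 transcripts. The shPAX8-2 guide matched the 3′ UTR in exon 12 (chr2:113218122-113218143) and was found in 7. Neither had a full match in another gene. The seed match of shPAX8-1 occurred once in the longest A2M transcript and in no other member, against 14.8% of 19676 genes. That of shPAX8-2 occurred once in CFB and once in A2M, against 20.1% of genes.

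PAX8 itself was lower in all shPAX8 libraries than in any sgNTC18 library of the same line. The CPM of PAX8 (its reads as a share of the TMM-normalized library size) averaged 341.0 ± 44.7 (SD, n = 4) in 786-M1A sgNTC18, 18.7 ± 4.31 in shPAX8-1 and 42.4 ± 2.36 in shPAX8-2. In OS-LM1 it averaged 259.9 ± 14.5, 78.2 ± 13.1 and 79.2 ± 13.7. The log2 fold changes against sgNTC18 were -4.16 ± 0.16 (SE) and -2.99 ± 0.15 in 786-M1A and -1.76 ± 0.12 and -1.71 ± 0.12 in OS-LM1, with adjusted p of at most 9.3e-10 (edgeR's quasi-likelihood test, Benjamini-Hochberg over all genes tested, as throughout).

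Library totals ran from 11634419 to 52059375 reads, and no replicate pair agreed within sampling noise. In 786-M1A shPAX8-1, replicates 1 and 2 stood apart from 3 and 4: the chi-square per gene between them was 41.55 to 71.58, against 3.58 to 83.15 over all replicate pairs of the 6 groups. In OS-LM1, 1 shPAX8-2 library was the deepest of all. Hepatocyte markers were checked because most members are liver genes: 5 of 7 (ALB, APOA1, APOB, TTR and AHSG) stayed under 1 CPM in every library. The summed hepatocyte list reached 247.8 to 271.7 CPM in OS-LM1 sgNTC18, 13.9 to 33.7 in the OS-LM1 shPAX8 libraries and at most 0.941 in 786-M1A. In OS-LM1, FGB (240.6 to 265.2 CPM with sgNTC18) made up most of it. Of 6 leukocyte markers, CD163 was at 0 in every library and PTPRC under 1 CPM. The list's sum, mostly CD68, was 78.7 to 93.1 CPM in OS-LM1 sgNTC18 and 194.6 to 364.5 in the shPAX8 libraries of that line, and 187.5 to 221.0 against 204.2 to 404.7 in 786-M1A. Of 5 fibroblast markers, COL1A2 stayed under 1 CPM in every library. The list's sum was 14.9 to 20.1 CPM in OS-LM1 sgNTC18, 91.7 to 113.3 with shPAX8-1 and 100.9 to 206.9 with shPAX8-2, mostly COL1A1, and 535.3 to 726.5, 203.4 to 424.9 and 670.8 to 891.2 in 786-M1A, mostly PDGFRB. The part of these markers in the results below was not tested. In bulk libraries, fewer cells that express a gene and less RNA per cell cannot be told apart.

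On a scale that accounts for transcript length (TPM), CP was the most abundant member in the control libraries of both lines. In OS-LM1 sgNTC18, CP stood at 148.5 ± 14.8 TPM (rank 873 of all genes by mean TPM) and C3 at 127.8 ± 12.9 (rank 991), with overlapping libraries. SAA1 followed at 41.6 ± 2.27 TPM, then CFB at 5.89 ± 0.181, SAA2 at 4.22 ± 1.57, LCN2 at 3.73 ± 0.485 and A2M at 0.857 ± 0.142. The ranges of CFB, SAA2 and LCN2 overlapped from one neighbour to the next. In 786-M1A sgNTC18 the order was CP (49.4 ± 7.73 TPM), SAA1 (29.7 ± 5.19), C3 (9.04 ± 0.196), CFB (6.90 ± 1.10), SAA2 (2.72 ± 1.04) and LCN2 (0.733 ± 0.197), and A2M was listed at 0. In OS-LM1 shPAX8-2, C3 led with 385.0 ± 22.2 TPM (rank 321), followed by SAA1 at 159.3 ± 11.5 and CP at 156.6 ± 10.2, which overlapped.

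**Figure D1:**
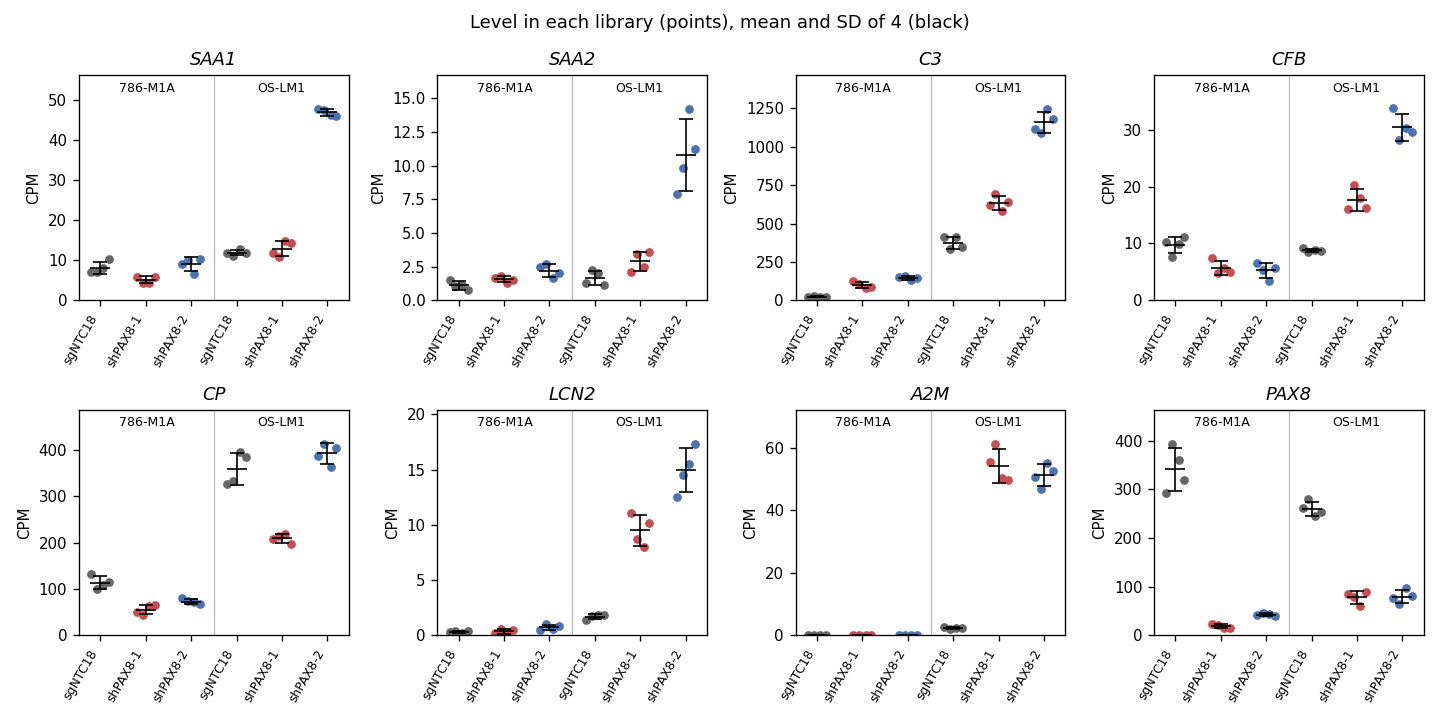
CPM of 7 members and of PAX8 in each library (points; 4 per group), with the mean and SD in black, on linear axes that start at 0. In OS-LM1 the SAA1 libraries with shPAX8-2 lie between 46.0 and 47.8 CPM and all others at or below 14.7, whereas A2M lies between 46.9 and 61.1 CPM with either shPAX8 construct and is at 0 in every 786-M1A library.

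C3 was higher with both shPAX8 constructs than with sgNTC18 in 786-M1A. Its CPM in the 4 sgNTC18 libraries was 24.4, 25.7, 25 and 25.2. With shPAX8-1 it was 124.4, 104.7, 83.2 and 84.3, and with shPAX8-2 it was 152.5, 161.6, 131.4 and 142.9. No library of either shPAX8 group overlapped the controls. C3 rose 4.02-fold with shPAX8-1 (log2 fold change 2.01 ± 0.13 SE, adjusted p = 4.4e-09) and 5.96-fold with shPAX8-2 (2.57 ± 0.13, adjusted p = 1.0e-09). In shPAX8-1, replicates 1 and 2 held the higher C3 values and also the higher PAX8 values (22.9 and 21.9 CPM, against 15.2 and 14.8). The log2 fold change was 2.19 from replicates 1 and 2 alone and 1.76 from replicates 3 and 4.

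CFB, the other member with a role inside the complement cascade, fell in 786-M1A with both constructs. It stood at 10.3, 7.68, 9.84 and 11.1 CPM with sgNTC18, at 7.42, 4.76, 5.66 and 5.03 with shPAX8-1 and at 6.60, 5.29, 3.40 and 5.73 with shPAX8-2. The groups did not overlap, although the lowest control library lay close to the highest shPAX8-1 library. The log2 fold change was -0.75 ± 0.20 with shPAX8-1 (adjusted p = 0.00327) and -0.86 ± 0.20 with shPAX8-2 (adjusted p = 0.00167).

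CP fell as well. It was at 131.7, 98.9, 107.9 and 114.8 CPM with sgNTC18, at 50.9, 42.6, 63.6 and 64.7 with shPAX8-1 and at 79.6, 72.9, 70.9 and 66.6 with shPAX8-2. Every shPAX8 library was below every control library. The log2 fold change was -1.01 ± 0.14 with shPAX8-1 (adjusted p = 8.5e-06) and -0.62 ± 0.14 with shPAX8-2 (adjusted p = 9.3e-04). In shPAX8-1 the pairs of replicates differed here too, with -1.28 from replicates 1 and 2 and -0.81 from replicates 3 and 4.

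In 786-M1A, SAA1 was at 6.98, 7.13, 8.03 and 10.3 CPM with sgNTC18, at 5.96, 4.38, 4.33 and 5.86 with shPAX8-1 and at 9.05, 10.1, 6.63 and 10.4 with shPAX8-2. The shPAX8-1 libraries lay below all controls, and the shPAX8-2 libraries overlapped them. The log2 difference from sgNTC18 was -0.64 ± 0.18 with shPAX8-1, and -0.15 after removal of each library's trend with GC content. With shPAX8-2 it was 0.18 ± 0.18.

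SAA2 had counts of 16.8 to 50.3 per library in this line. It was at 1.52, 1.05, 1.16 and 0.747 CPM with sgNTC18, at 1.67, 1.79, 1.32 and 1.49 with shPAX8-1 and at 2.5, 2.70, 1.66 and 2.00 with shPAX8-2. Only the shPAX8-2 libraries were all above the controls. The log2 fold change was 0.50 ± 0.25 with shPAX8-1 (adjusted p = 0.0893, and 0.0349 without sgNTC18 replicate 1) and 1.01 ± 0.25 with shPAX8-2 (adjusted p = 0.00275).

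SAA1 and SAA2 are near copies: their reference transcripts were identical at 95.4% of 518 aligned bases, against 73.4% for SAA1 and SAA4. The estimated counts divide reads between them and the readthrough gene SAA2-SAA4, so the split is uncertain. SAA1 took 77.9% to 90.7% of the summed counts of these 3 genes in 786-M1A sgNTC18 and 68.2% to 77.2% in shPAX8-1. The log2 difference of the sum from sgNTC18 was -0.42 with shPAX8-1 and 0.31 with shPAX8-2.

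LCN2 was close to the detection limit in 786-M1A, with 3 to 19 reads per library. It was at 0.246, 0.387, 0.227 and 0.395 CPM with sgNTC18, at 0.157, 0.565, 0.181 and 0.442 with shPAX8-1 and at 0.512, 1.03, 0.580 and 0.800 with shPAX8-2. The shPAX8-1 libraries spanned the controls, and the shPAX8-2 libraries all lay above them. The log2 difference from sgNTC18 was 0.18 ± 0.46 with shPAX8-1 and 1.27 ± 0.43 with shPAX8-2. LCN2 passed the low-count filter in this line only through shPAX8 libraries. The filter therefore favoured a rise, and no test of it is given. The shPAX8-2 value was 1.12 without sgNTC18 replicate 3 and 1.05 without shPAX8-2 replicate 2.

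A2M was at 0 in all 12 libraries of 786-M1A, which allows at most 0.0312, 0.0400 and 0.0475 CPM over the sgNTC18, shPAX8-1 and shPAX8-2 groups (3 reads over each group, counting error only). SAA4 had 4 reads in 1 shPAX8-2 library and none elsewhere in this line, and HP had 3 reads in all. In 786-M1A, 6 of the 9 members passed the low-count filter. Of the 5 other than SAA1, 1 rose with shPAX8-1, against 36.1% of the 14452 genes tested, and 2 fell, against 34.5%. With shPAX8-2, 3 of the 5 rose (31.5% of all genes) and 2 fell (30.9%). LCN2 is among the 3, and the filter favoured its rise. With shares this high over all genes, the counts are not a result about the members.

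**Figure D2:**
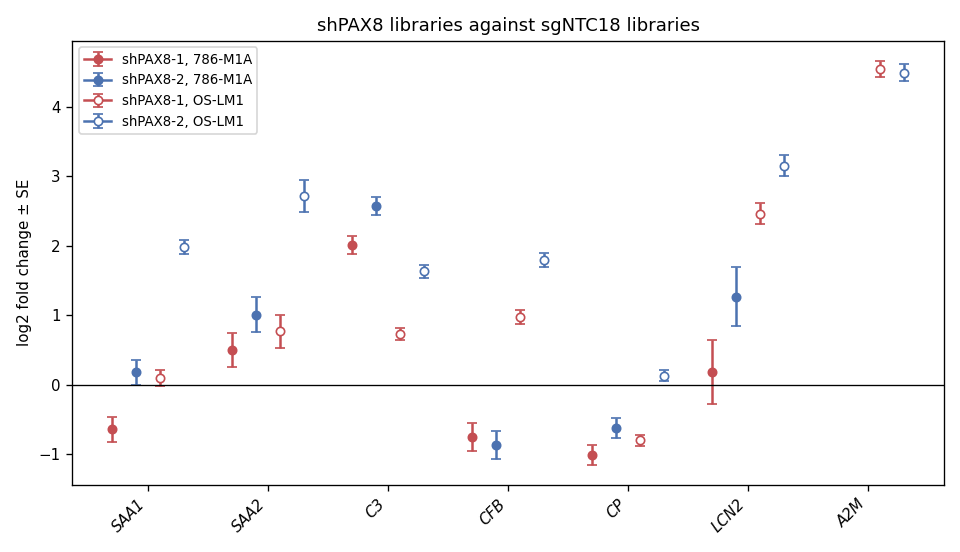
Log2 fold change of each member against sgNTC18, with the SE from the fit as bars; filled points are 786-M1A, open points OS-LM1, red shPAX8-1 and blue shPAX8-2. CFB lies below 0 in 786-M1A (-0.75 and -0.86) and above 0 in OS-LM1 (0.98 and 1.79); A2M has no 786-M1A point because it was at 0 there.

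In OS-LM1 most members stood higher in the shPAX8 libraries than in the controls, and A2M differed most; these contrasts chose the members, so the values are a description. A2M was at 2.76, 1.85, 2.20 and 2.32 CPM with sgNTC18. It was at 55.4, 61.1, 50.4 and 49.6 with shPAX8-1 and at 50.6, 46.9, 55.2 and 52.6 with shPAX8-2. All shPAX8 libraries were above the controls, and the shPAX8 groups overlapped each other. The difference from sgNTC18 was 23.3-fold with shPAX8-1 (log2 4.54 ± 0.12) and 22.5-fold with shPAX8-2 (4.49 ± 0.12), and between the constructs it was 0.05 ± 0.10 on the log2 scale.

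A2M has a close relative, PZP, and an antisense neighbour, A2M-AS1, which overlaps it on chromosome 12 (9065163 to 9068689, with A2M at 9067664 to 9116229 on the opposite strand). PZP, another protease trap, averaged 2.32 ± 0.56 CPM with sgNTC18, 9.22 ± 1.83 with shPAX8-1 and 8.68 ± 0.919 with shPAX8-2. It rose with both (log2 fold change 1.96 ± 0.18, adjusted p = 1.3e-08, and 1.90 ± 0.18, adjusted p = 2.7e-08). A2M-AS1 averaged 1.43 ± 0.320, 3.94 ± 0.789 and 1.28 ± 0.436 CPM, and so rose with shPAX8-1 (1.44 ± 0.24, adjusted p = 2.1e-05) and changed by -0.10 ± 0.25 with shPAX8-2 (adjusted p = 0.731). The strand setting of the counting is not given in the sources used here, so reads of A2M and A2M-AS1 may not be separated. In 786-M1A, PZP had 1 read or none per library. A2ML1, a further relative, averaged 0.259 to 0.500 CPM in the 6 groups and passed no test in any contrast in which it was tested.

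LCN2 followed a graded order in OS-LM1. It was at 1.38, 1.70, 1.81 and 1.87 CPM with sgNTC18, at 11.1, 8.68, 8.03 and 10.2 with shPAX8-1 and at 12.5, 14.5, 15.5 and 17.3 with shPAX8-2. No group overlapped another. The log2 difference from sgNTC18 was 2.46 ± 0.15 with shPAX8-1 and 3.15 ± 0.15 with shPAX8-2.

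C3 showed the same order at a far higher level. Its CPM was 410.1, 334.3, 409.3 and 348.7 with sgNTC18, 618.2, 692.4, 579.7 and 639.5 with shPAX8-1 and 1113.9, 1091.2, 1243.5 and 1181.5 with shPAX8-2. The groups did not overlap. The log2 difference from sgNTC18 was 0.73 ± 0.09 and 1.63 ± 0.09, and it was 1.15 and 1.92 after removal of the GC trend.

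CFB was at 9.18, 8.55, 8.79 and 8.65 CPM with sgNTC18, at 16.1, 20.2, 17.9 and 16.3 with shPAX8-1 and at 33.7, 28.1, 30.2 and 29.6 with shPAX8-2. Again no group overlapped another, and the direction was the opposite of that in 786-M1A. The log2 difference from sgNTC18 was 0.98 ± 0.10 with shPAX8-1 and 1.79 ± 0.10 with shPAX8-2. C2, the neighbour and paralog of CFB that supplies the protease of the classical pathway, was measured as well. In 786-M1A it averaged 0.505 ± 0.251 CPM with sgNTC18, 1.30 ± 0.446 with shPAX8-1 and 1.92 ± 0.628 with shPAX8-2. The control libraries alone would not have passed the low-count filter there. The filter therefore favoured a rise, and no test of it is given. In OS-LM1 it averaged 0.664 ± 0.289, 0.544 ± 0.126 and 0.754 ± 0.118 CPM, with adjusted p of 0.448 and 0.65 against sgNTC18.

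CP was lower with shPAX8-1. It was at 326.0, 332.5, 395.1 and 384.0 CPM with sgNTC18, at 208.3, 214.2, 219.6 and 197.0 with shPAX8-1 and at 387.2, 413.8, 364.2 and 405.5 with shPAX8-2. The shPAX8-1 libraries lay below all others, and the shPAX8-2 libraries overlapped the controls. The log2 difference from sgNTC18 was -0.80 ± 0.08 with shPAX8-1 and 0.13 ± 0.08 with shPAX8-2, and the latter was -0.19 after removal of the GC trend.

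SAA1 and SAA2 set the constructs furthest apart in OS-LM1. SAA1 was at 11.9, 11.1, 12.8 and 11.9 CPM with sgNTC18, at 11.8, 10.9, 14.7 and 14.3 with shPAX8-1 and at 47.8, 47.6, 46.2 and 46.0 with shPAX8-2. The shPAX8-1 libraries overlapped the controls, whereas all shPAX8-2 libraries were far above both. The log2 difference from sgNTC18 was 0.10 ± 0.11 with shPAX8-1 and 1.98 ± 0.10 with shPAX8-2, and it was 0.51 and 2.26 after removal of the GC trend. SAA2 was at 1.27, 2.23, 2.00 and 1.14 CPM with sgNTC18, at 2.09, 3.44, 2.45 and 3.57 with shPAX8-1 and at 7.91, 9.79, 14.2 and 11.2 with shPAX8-2, and its shPAX8-1 libraries overlapped the controls by 1 library. Its log2 differences were 0.77 ± 0.24 and 2.71 ± 0.23. The readthrough gene SAA2-SAA4 had under 3 reads in every sgNTC18 library, 5.68 to 12.2 with shPAX8-1 and 4.52 to 30.0 with shPAX8-2. Summed over SAA1, SAA2 and SAA2-SAA4, the log2 differences were 0.23 and 2.10. SAA4 had 2 reads with sgNTC18, 3 with shPAX8-1 and none with shPAX8-2, and HP had 1 read in the 12 libraries, so neither gene gave a fold.

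The OS-LM1 comparisons of shPAX8-1 and shPAX8-2 with the controls share the same 4 sgNTC18 libraries.

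The constructs were also set directly against each other. In OS-LM1 the log2 difference of shPAX8-1 from shPAX8-2 was -1.94 ± 0.23 for SAA2, -1.88 ± 0.11 for SAA1, -0.94 ± 0.09 for CP, -0.90 ± 0.09 for C3, -0.82 ± 0.10 for CFB and -0.69 ± 0.14 for LCN2, and the groups of each of these 6 genes did not overlap. In 786-M1A it was -1.09 ± 0.43 for LCN2, -0.82 ± 0.19 for SAA1, -0.57 ± 0.12 for C3, -0.50 ± 0.25 for SAA2, -0.39 ± 0.14 for CP and 0.11 ± 0.21 for CFB. There SAA1, C3 and CP did not overlap, and LCN2, SAA2 and CFB did. After removal of the GC trend the 786-M1A values were -0.46 for SAA1, -0.21 for C3 and -0.80 for CP. All these values are a description, since SAA1 was chosen for this contrast. PAX8 differed between the constructs in 786-M1A (-1.18 ± 0.15, adjusted p = 4.0e-05) and by -0.05 ± 0.12 in OS-LM1 (adjusted p = 0.797). In 786-M1A the choice of shPAX8-1 replicates mattered: the C3 difference was -0.36 from replicates 1 and 2 and -0.82 from 3 and 4, that of CP -0.63 and -0.18.

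**Figure D3:**
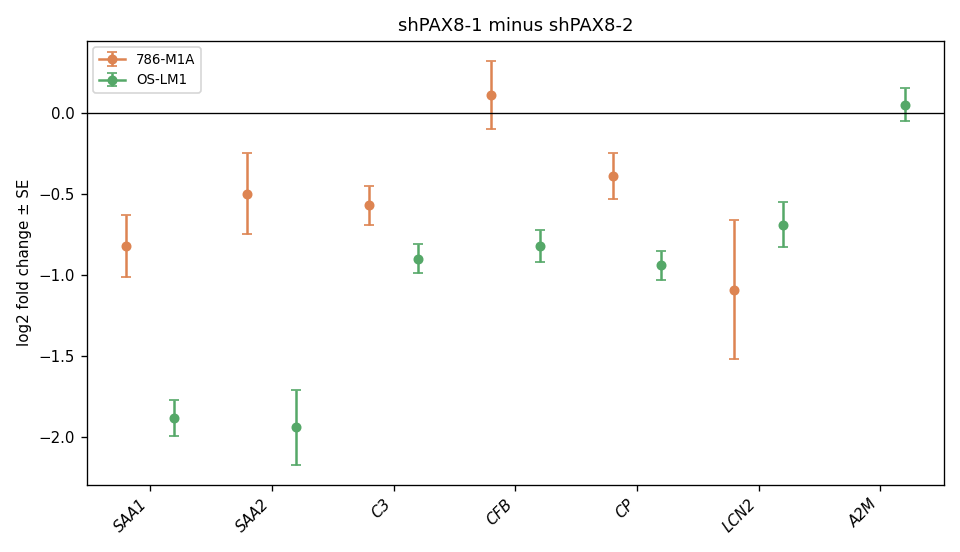
Log2 fold change of shPAX8-1 minus shPAX8-2 with the SE from the fit, in 786-M1A (orange) and OS-LM1 (green). SAA1 and SAA2 lie lowest in OS-LM1 (-1.88 and -1.94), and A2M, plotted for OS-LM1 only, lies at 0.05.

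The lines were compared within each construct, a contrast that the choice of members did not use, although SAA1 in the shPAX8 libraries was among the values it used. C3 was 15.0-fold higher in OS-LM1 than in 786-M1A with sgNTC18 (log2 3.91 ± 0.12, adjusted p = 5.5e-20), 6.37-fold with shPAX8-1 (2.67 ± 0.11, adjusted p = 2.3e-17) and 7.87-fold with shPAX8-2 (2.98 ± 0.11, adjusted p = 3.1e-18). LCN2 was 5.47-fold higher with sgNTC18 (adjusted p = 1.6e-08), 27.2-fold with shPAX8-1 (adjusted p = 3.9e-15) and 20.1-fold with shPAX8-2 (adjusted p = 4.3e-15). Both genes were higher in every OS-LM1 library than in any 786-M1A library of the same construct.

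CP, too, was higher in OS-LM1 with each construct, by 3.17-fold with sgNTC18 (adjusted p = 7.7e-13), 3.78-fold with shPAX8-1 (adjusted p = 3.1e-14) and 5.42-fold with shPAX8-2 (adjusted p = 3.0e-16). CFB did not pass the test between the control libraries, where the log2 difference was -0.15 ± 0.15 (adjusted p = 0.402) and the groups overlapped. It was higher in OS-LM1 with shPAX8-1 (1.62 ± 0.16, adjusted p = 5.0e-10) and with shPAX8-2 (2.52 ± 0.16, adjusted p = 1.3e-13).

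SAA1 was 1.47-fold higher in OS-LM1 with sgNTC18 (log2 0.56 ± 0.14, adjusted p = 0.00127), and, as a description, 2.52-fold with shPAX8-1 (1.34 ± 0.15) and 5.15-fold with shPAX8-2 (2.36 ± 0.15). SAA2 differed by 0.56 ± 0.26 with sgNTC18 (adjusted p = 0.0636), by 0.87 ± 0.25 with shPAX8-1 (adjusted p = 0.00325) and by 2.28 ± 0.24 with shPAX8-2 (adjusted p = 2.7e-09). The SAA2 call between control libraries depended on single libraries: it was 0.0268 without 786-M1A replicate 1, 0.0366 without OS-LM1 replicate 1 and 0.0259 without OS-LM1 replicate 4. A2M had 317, 4858 and 5794 reads over the 4 OS-LM1 libraries of sgNTC18, shPAX8-1 and shPAX8-2 and none in 786-M1A, so it was at least 73.2-fold, 1340-fold and 1107-fold higher in OS-LM1, against a floor of 3 reads over each 786-M1A group.

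A2M passed the filter only through OS-LM1, where it is expressed, and had to differ, so it is not counted. With sgNTC18, 4 of the other 6 members were higher in OS-LM1 and none lower, against 32.0% and 31.0% of the 15665 genes tested. Leaving out SAA1 as well, all 5 members tested were higher with shPAX8-1 (38.7% higher and 37.7% lower over all genes) and with shPAX8-2 (38.7% and 38.2%). Whether the differences between the lines change with the construct was not tested.

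**Figure D4:**
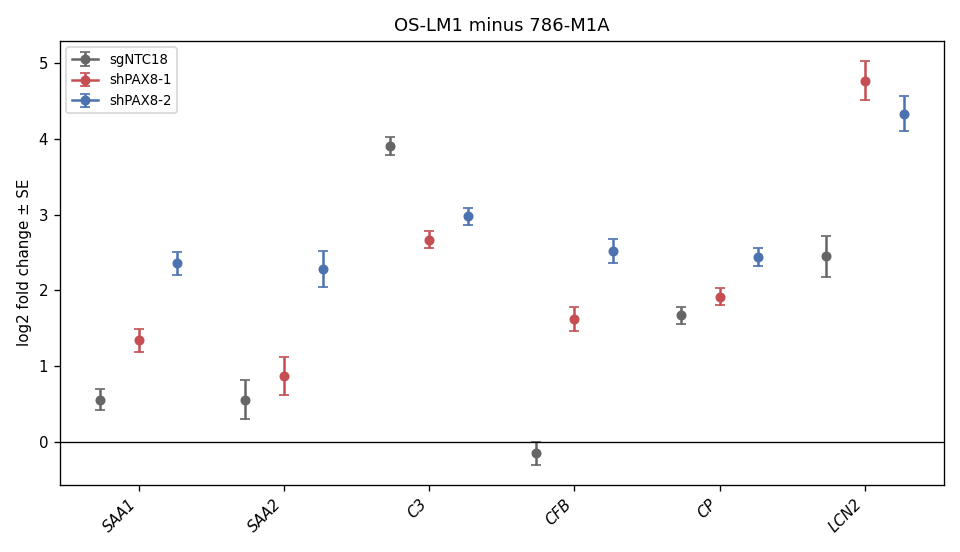
Log2 fold change of OS-LM1 minus 786-M1A with the SE from the fit, for sgNTC18 (grey), shPAX8-1 (red) and shPAX8-2 (blue) libraries; A2M is left out because it was at 0 in 786-M1A. All points lie above 0 except CFB with sgNTC18, at -0.15.

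The genes most like each member across the 24 libraries (Pearson r of log2 CPM among 11849 genes with a mean log2 CPM of at least 1) were, for SAA1, CCR6 (0.95), LBH (0.94) and CHPT1 (0.94). For SAA2 they were MLLT4, PDGFA and RHOBTB1 (0.90 each), for C3 UGT1A9, F2R and KCNE4 (0.98 each) and for CFB MAP3K8 (0.97), GRB10 (0.95) and SUSD6 (0.95). Those of CP were TACC1 (0.99), ANXA4 (0.98) and C2CD3 (0.98), those of LCN2 NCOA1 (0.98), APH1B (0.98) and MDK (0.97), and those of A2M ARRDC4, ARHGAP24 and CXADR (0.99 each). No other member was among them, but a member with a mean log2 CPM under 1 could not be listed. The points are 6 groups in 2 lines, so that a difference between lines alone gives a high r.

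Other complement genes were taken from a list of 34 without the members. In 786-M1A, 17 passed the filter. With shPAX8-1, 13 rose and 2 fell (36.1% and 34.5% of all genes), and with shPAX8-2, 13 rose and 1 fell (31.5% and 30.9%), with medians of 1.12 and 1.54 beside 0.03 and 0.02 over all genes. In OS-LM1, 20 passed. With shPAX8-1, 10 rose and 2 fell (35.6% and 35.8% of the 15049 genes tested in this line), and with shPAX8-2, 12 rose and 1 fell (34.3% and 34.1%), with medians of 0.41 and 0.61 beside -0.01. Leukocyte, hepatocyte and fibroblast markers moved as given above, and their part in these counts was not tested. VTN, CFI and C2 are among the genes counted in 786-M1A, where their control libraries alone would not have passed the filter. The filter favoured a rise for them, so the 786-M1A counts and medians are not a result about the list.

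In 786-M1A, VTN, which blocks the membrane attack complex, went from 0.0138 ± 0.0276 to 0.563 ± 0.333 CPM with shPAX8-1 and to 0.674 ± 0.133 with shPAX8-2. It had 1 read in the control libraries and passed the filter only through shPAX8 libraries, so no test of this rise is given.

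In OS-LM1, SERPING1, the inhibitor of C1, rose from 2.42 ± 0.354 to 40.5 ± 6.4 CPM with shPAX8-1 (log2 fold change 4.03 ± 0.15, adjusted p = 2.4e-14) and to 44.4 ± 6.54 with shPAX8-2 (4.20 ± 0.15, adjusted p = 1.9e-14). CFI, the protease that inactivates C3b, rose from 3.31 ± 0.298 to 43.4 ± 7.94 (adjusted p = 3.3e-14) and 29.8 ± 3.41 CPM (adjusted p = 3.8e-13). CFI was also higher in 786-M1A, where the filter favoured a rise, by 3.98 on the log2 scale with shPAX8-1 and 4.72 with shPAX8-2.

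Among those that fell, C4BPB, a chain of the C4b-binding protein, went from 5.77 ± 0.986 CPM in OS-LM1 sgNTC18 to 0.280 ± 0.0659 with shPAX8-1 (adjusted p = 1.6e-11) and 0.575 ± 0.172 with shPAX8-2 (adjusted p = 2.4e-10). C4BPA, its partner chain, fell with shPAX8-1 (-0.85 ± 0.36, adjusted p = 0.0398) and differed by 0.64 ± 0.32 with shPAX8-2 (adjusted p = 0.0856). In 786-M1A, C5 fell by 0.53 ± 0.22 on the log2 scale with shPAX8-1 (adjusted p = 0.0418) and by 0.61 ± 0.22 with shPAX8-2 (adjusted p = 0.0276), and C1RL, a protease related to C1R, fell by 1.11 ± 0.17 with shPAX8-1 (adjusted p = 2.4e-05) and differed by 0.19 ± 0.16 with shPAX8-2 (adjusted p = 0.317).

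**Figure D5:**
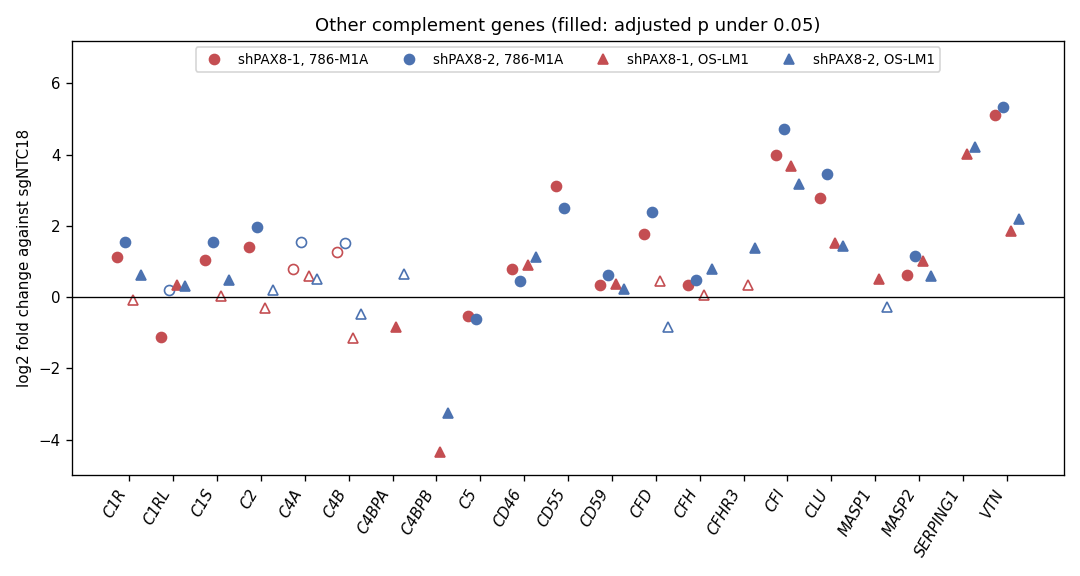
Log2 fold change against sgNTC18 of complement genes that passed the filter and are no members, with items not reported here left out; circles are 786-M1A, triangles OS-LM1, red shPAX8-1 and blue shPAX8-2, filled where the adjusted p is under 0.05. CFI, CLU and VTN are among the genes that lie above 0 in all 4 contrasts.

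Between the constructs, 1 of 17 complement genes stood higher in shPAX8-1 libraries and 6 stood lower in 786-M1A (24.2% and 22.9% of all genes, median -0.50, all genes -0.02), and 2 of 20 were higher and 6 lower in OS-LM1 (12.4% and 16.7%, median -0.19, all genes -0.03). In 786-M1A, CD55, a decay-accelerating membrane protein, was higher (0.64 ± 0.14, adjusted p = 0.00252), and C1RL (-1.30 ± 0.17, adjusted p = 4.7e-05) and CFI (-0.74 ± 0.18, adjusted p = 0.00466) were lower. In OS-LM1, MASP1 (0.77 ± 0.20, adjusted p = 0.00729) and CFI (0.52 ± 0.12, adjusted p = 0.0036) were higher, and C4BPA (-1.48 ± 0.35, adjusted p = 0.00369) and C4BPB (-1.08 ± 0.31, adjusted p = 0.0131) were lower. Between the lines, 11 of 22 were higher and 6 lower in OS-LM1 with sgNTC18 (32.0% and 31.0% of all genes), 11 and 7 with shPAX8-1 (38.7% and 37.7%), and 10 and 9 with shPAX8-2 (38.7% and 38.2%). CD55 was at 16.8 ± 2.21 CPM in 786-M1A sgNTC18 and 0.0428 ± 0.0542 in OS-LM1 sgNTC18, and C5 at 8.40 ± 1.48 and 0.153 ± 0.0721. VTN (13.1 ± 1.60 CPM, adjusted p = 2.3e-17) and C4BPB (5.77 ± 0.986) were detected in OS-LM1 sgNTC18 and had 1 read each in 786-M1A sgNTC18. CD55 and C5 passed the filter only through 786-M1A, and C4BPA, C4BPB and SERPING1 only through OS-LM1. The filter favoured a difference between the lines for them, so no test of it is given. The counts between the lines include them and are not a result about the list.

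Other acute-phase genes, 22 in the list, gave fewer measured members because most liver products were near 0: 6 passed in 786-M1A and 10 in OS-LM1. In 786-M1A, 4 of 6 rose and 1 fell with shPAX8-1 (36.1% and 34.5% of all genes) and with shPAX8-2 (31.5% and 30.9%), with medians of 1.79 and 1.26 beside 0.03 and 0.02 over all genes. LBP, which presents lipopolysaccharide to CD14, went from 0.0667 ± 0.0540 CPM to 2.09 ± 0.503 with shPAX8-1 and 1.81 ± 0.0579 with shPAX8-2. PTX3, a long pentraxin, rose with shPAX8-1 (2.48 ± 0.12, adjusted p = 2.9e-10) and with shPAX8-2 (1.18 ± 0.12, adjusted p = 7.9e-07). TF, the iron carrier transferrin, was higher by 2.04 ± 0.46 with shPAX8-1 and 2.27 ± 0.46 with shPAX8-2. LBP and TF passed the filter in 786-M1A only through shPAX8 libraries. The filter therefore favoured their rise, and no test of it is given. Both are among the 4 genes counted, so the 786-M1A counts and medians are not a result about the list. FN1, fibronectin, fell by 1.68 ± 0.13 with shPAX8-1 (adjusted p = 2.4e-08) and by 1.10 ± 0.13 with shPAX8-2 (adjusted p = 2.8e-06).

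In OS-LM1, 2 of 10 rose and 5 fell with shPAX8-1 (35.6% and 35.8% of all genes, median -0.37), and 2 rose and 6 fell with shPAX8-2 (34.3% and 34.1%, median -0.61), beside a median of -0.01 over all genes. The fibrinogen chains fell: FGB from 250.7 ± 11.3 CPM to 15.5 ± 2.36 with shPAX8-1 (adjusted p = 6.9e-16) and 27.1 ± 3.62 with shPAX8-2 (adjusted p = 1.3e-14), and FGG from 29.4 ± 3.56 to 2.04 ± 0.364 (adjusted p = 2.1e-13) and 3.75 ± 0.967 (adjusted p = 4.5e-12). PTX3 rose by 2.91 ± 0.15 (adjusted p = 2.0e-12) and 1.81 ± 0.15 (adjusted p = 2.5e-09), LBP by 1.5 ± 0.16 (adjusted p = 7.4e-08) and 2.59 ± 0.16 (adjusted p = 3.7e-11). Between the constructs in OS-LM1, 1 of 10 was higher with shPAX8-1 (12.4% of all genes, here PTX3, 1.10 ± 0.14, adjusted p = 7.9e-06) and 5 were lower (16.7% of all genes), among them LBP (-1.08 ± 0.15, adjusted p = 2.1e-05) and FGG (-0.89 ± 0.18, adjusted p = 0.001). In 786-M1A, PTX3 was higher (1.29 ± 0.12, adjusted p = 2.0e-06) and FN1 lower (-0.58 ± 0.13, adjusted p = 0.00206). FGG had no reads in 786-M1A sgNTC18 and was at least 941.5-fold higher in OS-LM1 sgNTC18, where 6 of 11 genes of the list were higher and 4 lower (32.0% and 31.0% of all genes). With shPAX8-1, 5 were higher and 2 lower (38.7% and 37.7%), and with shPAX8-2, 4 and 2 (38.7% and 38.2%), the lower ones being TF and SERPINA1 with both constructs. FGA, FGB and FGG passed the filter only through OS-LM1, and TF only through 786-M1A. The filter therefore favoured a difference for them, and these counts between the lines are not a result about the list.

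The inducers and receptors of the response formed a list of 35, of which 27 passed in 786-M1A and 32 in OS-LM1. In 786-M1A, 9 rose and 12 fell with shPAX8-1 (36.1% and 34.5% of all genes) and 9 rose and 8 fell with shPAX8-2 (31.5% and 30.9%), with medians of -0.11 and 0.12 beside 0.03 and 0.02 over all genes. In OS-LM1, 17 rose and 7 fell with shPAX8-1 (35.6% and 35.8%) and 18 rose and 8 fell with shPAX8-2 (34.3% and 34.1%), with medians of 0.35 and 0.44 beside -0.01. IL1B, the cytokine that drives NF-kB in this response, had the largest rise in all 4. It went from 0.104 ± 0.145 CPM in 786-M1A to 20.9 ± 2.28 and 4.16 ± 0.702. In OS-LM1 it went from 0.268 ± 0.0687 to 103.3 ± 13.1 and 39.3 ± 4.15. Its control libraries alone would not have passed the filter in either line. The filter therefore favoured a rise, and no test of it is given. The counts above include IL1B. The IL1B level with shPAX8-1 exceeded that with shPAX8-2 by 2.32 ± 0.26 on the log2 scale in 786-M1A (adjusted p = 1.8e-05) and 1.36 ± 0.11 in OS-LM1 (adjusted p = 2.2e-08). The part of IL1B in the members' values was not tested.

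IL1A rose in OS-LM1 by 5.46 ± 0.20 (adjusted p = 1.8e-14) and 3.97 ± 0.21 (adjusted p = 3.1e-12). In 786-M1A it differed by 3.61 ± 0.62 with shPAX8-1 and 0.85 ± 0.83 with shPAX8-2. It passed the filter there only through shPAX8-1 libraries, which favoured a difference, so no test of IL1A is given in that line. Between the constructs, IL1A was higher for shPAX8-1 by 2.76 ± 0.61 in 786-M1A and 1.49 ± 0.15 in OS-LM1 (adjusted p = 7.0e-07). OSMR, the oncostatin M receptor, rose in 786-M1A by 1.29 ± 0.08 with shPAX8-1 (adjusted p = 3.5e-09) and 2.02 ± 0.08 with shPAX8-2 (adjusted p = 1.1e-10), and in OS-LM1 by 0.76 ± 0.08 (adjusted p = 3.3e-08) and 1.04 ± 0.08 (adjusted p = 5.4e-10). In 786-M1A, TNF fell by 1.42 ± 0.20 with shPAX8-1 (adjusted p = 1.1e-05) and by 1.66 ± 0.20 with shPAX8-2 (adjusted p = 5.4e-06), and IL6 fell by 0.42 ± 0.15 (adjusted p = 0.0244) and by 1.70 ± 0.16 (adjusted p = 4.8e-07).

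In OS-LM1, FPR2, a receptor that binds serum amyloid A, went from 7.76 ± 0.931 CPM to 0.230 ± 0.0961 with shPAX8-1 and 0.0779 ± 0.0789 with shPAX8-2. Its shPAX8 libraries alone would not have passed the filter, which favoured a fall, so no test of it is given. IL6 rose in OS-LM1, from 47.5 CPM to 202.0 and 222.0 on average, by 2.06 and 2.23 on the log2 scale. Between the constructs, 3 of 32 were higher and 5 lower with shPAX8-1 in OS-LM1 (12.4% and 16.7% of all genes), the latter including LIF (-0.82 ± 0.12, adjusted p = 4.1e-05). In 786-M1A, 9 of 27 were higher and 9 lower (24.2% and 22.9%). Of the lower ones, LRP1, a receptor for A2M (-1.22 ± 0.23, adjusted p = 9.0e-04), and CEBPD (-1.20 ± 0.12, adjusted p = 7.2e-06) differed most. Between the lines, 14 of 32 were higher and 8 lower in OS-LM1 with sgNTC18 (32.0% and 31.0% of all genes), 17 and 8 with shPAX8-1 (38.7% and 37.7%), and 17 and 11 with shPAX8-2 (38.7% and 38.2%). Fewer genes of this list passed the filter in 786-M1A than in OS-LM1. The filter therefore favoured differences, and these counts are not a result about the list. SCARB1, which binds high-density lipoprotein, was lower in OS-LM1 with sgNTC18 (-2.10 ± 0.16, adjusted p = 6.0e-12), and CEBPD was lower with shPAX8-2 (4.83 ± 0.497 CPM against 50.6 ± 6.30, adjusted p = 2.5e-18).

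Promoters of 3 members, CFB, LCN2 and SAA4, were found in the RefSeq promoter table (GRCh38.p14, 250 bases before to 50 after the start site). Those of CFB and LCN2 are printed because these are the 2 expressed members it holds, and their differences between the lines were given above. Matches on either strand to an NF-kB motif (GGG, any 5 bases, then CC) are in capitals.

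CFB, chr6:31945845-31946144: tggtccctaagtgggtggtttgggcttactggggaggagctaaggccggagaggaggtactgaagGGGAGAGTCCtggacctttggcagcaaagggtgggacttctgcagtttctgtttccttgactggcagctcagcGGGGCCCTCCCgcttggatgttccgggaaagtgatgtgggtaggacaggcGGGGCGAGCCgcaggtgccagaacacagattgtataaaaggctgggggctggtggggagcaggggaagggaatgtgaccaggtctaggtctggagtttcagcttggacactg
LCN2, chr9:128149203-128149502: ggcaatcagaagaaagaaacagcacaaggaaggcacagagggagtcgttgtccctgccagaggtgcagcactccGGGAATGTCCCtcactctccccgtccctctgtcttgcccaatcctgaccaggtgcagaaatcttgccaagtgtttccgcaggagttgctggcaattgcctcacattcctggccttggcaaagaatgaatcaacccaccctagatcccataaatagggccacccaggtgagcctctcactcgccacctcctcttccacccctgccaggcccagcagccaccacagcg

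Both promoters lie on the plus strand. The CFB window held 5 matches, the first base of each at -185, -112, -111 (both strands) and -62 from the start site, of which the middle ones overlap. The LCN2 window held 2 overlapping matches, at -176 and -175, and the SAA4 window none, while 58.7% of 35116 promoters held at least 1. A C/EBP motif, TTGCNNAA, occurred once in LCN2, 3 times in SAA4 and not in CFB (10.5% of promoters), and a STAT motif, TTCNNNGAA, once in CFB (7.66%). A match is a stretch of letters in these windows and was not tested for binding.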

How the data were processed

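The 24 libraries (4 per group) were all used. Reads were mapped by the authors to hg38 (GRCh38 in other labels) using bowtie2 within RSEM, and the deposited values are expected counts and TPM per gene. Versions are not given in the sources used here. Library kits differ between sources: KAPA (stranded mRNA) in the labels, Lexogen in the paper. Library totals of 11634419 to 52059375 set the precision, and floors cover counting error only.

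Expected counts were rounded, filtered with filterByExpr, normalized by TMM and tested with edgeR 4.0.16 (robust quasi-likelihood, R 4.3.3, Benjamini-Hochberg, threshold 0.05). Within-line contrasts used the 12 libraries of a line, and contrasts between lines all 24. TPM was used only for levels between genes. The procedure was tested on simulated data. Sequences came from GENCODE 44, RefSeq and the designed constructs. Members and lists were chosen with earlier results of these data known. Named genes are the members, their overlapping genes and paralogs, PAX8, the genes most like each member, and, per list and contrast, up to 2 called genes with the largest change each way, with a few others chosen after their values were seen. Some items that the rule names are not reported here.

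Alternatives were DESeq2 1.42.0, its size factors, no filter beyond 1 count, an adjusted p under 0.01, each library left out, the replicate number as a block, summed SAA counts and other sets of libraries in the fit. Removal of each library's GC trend and the use of either pair of 786-M1A shPAX8-1 replicates were added after seeing the data.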

Additional observations from a re-analysis of the deposited data

Results flagged for a closer look

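CFB moved in opposite directions in the lines: every shPAX8 library of 786-M1A lay below the mean of its sgNTC18 group, and every shPAX8 library of OS-LM1 above it. The log2 fold changes were -0.75 in 786-M1A and 0.98 in OS-LM1 with shPAX8-1, and -0.86 and 1.79 with shPAX8-2. CP had log2 fold changes of opposite sign with shPAX8-2, -0.62 ± 0.14 in 786-M1A and 0.13 ± 0.08 in OS-LM1. In OS-LM1, however, its shPAX8-2 libraries overlapped the controls, and the value was -0.19 after removal of the GC trend. These differences between lines were not tested, because the OS-LM1 contrasts were used to choose the members. No library of any group stood apart from the other 3 for a member with a median of at least 10 reads.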

How the results depend on the processing

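In the 5 contrasts in which members were tested, the number called stayed within 1.5 times its main value under every alternative. SAA1 and A2M, and LCN2 within 786-M1A, are included in that number as a description. With the replicate number as a block, no tested call of a member changed. For shPAX8-1 against shPAX8-2 in 786-M1A, same-numbered libraries correlated at 0.037 to 0.271 (mean 0.17, against -0.057 for other pairs), with 3 of 4 pairs over 0.1. In no contrast did all 4 pairs exceed 0.1, the lowest being -0.319, so the numbers were not taken to pair the samples. Of other acute-phase genes with shPAX8-1 against sgNTC18 in 786-M1A, 5 were called, 9 without the filter and 8 with DESeq2, both of which test more genes. Leaving out 1 library at a time, the LCN2 value with shPAX8-1 in 786-M1A ranged from -0.21 to 0.41. The SAA1 value with shPAX8-1 in 786-M1A moved from -0.64 to -0.15 with the GC trend removed, and the cause was not tested. Depth limits LCN2, SAA2 and SAA2-SAA4 in 786-M1A and leaves SAA4 and HP unmeasured.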
